A study of Mus musculus with 22 samples.

Results

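The 10 macrophage genes described here are Adgre1, Cd68, Csf1r, Mrc1, Cd163, Cx3cr1, Lyz2, Tyrobp, Csf1, and Il34, which were picked by symbol out of the 32858 genes counted in mouse kidney. All 10 were found, and all 10 were among the 17131 genes with enough reads to be tested. Kidney polyA RNA of 22 male C57Bl6/J mice, aged 8 to 10 weeks at the start, was sequenced in 4 groups. Vehicle (DMSO, cremophor, and saline) was given to 5 mice, KW6002 (istradefylline, an adenosine receptor antagonist) to 6, cisplatin to 5, and cisplatin plus KW6002 to 6. Cisplatin was injected 6 times at 3 mg/kg per day. KW6002 was dosed daily at 3 mg/kg between days -5 and 7, and the kidneys were collected 72 hours after cisplatin ended. Each mouse gave 1 library of 26471762 to 40510754 counted reads. Levels are CPM, a gene's counts relative to the library total after scaling by the TMM method, and differences are log2 fold changes.

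Macrophages are phagocytes that live in the kidney between the tubules and are joined after injury by monocytes from the blood. Their survival depends on the receptor CSF1R, which has a pair of ligands, CSF1 and IL-34, both of which injured tubule cells can make. F4/80 (Adgre1) is the classical mouse macrophage surface marker, CD68 a lysosomal glycoprotein, CD206 (Mrc1) and CD163 scavenging receptors, CX3CR1 the fractalkine receptor of monocytes and kidney-resident macrophages, lysozyme M (Lyz2) a secreted bacteriolytic enzyme, and TYROBP the signaling adaptor of receptors such as TREM2. Adipose tissue also holds many macrophages. Whole kidneys can carry perirenal fat, so the fat genes Adipoq (adiponectin) and Cfd (adipsin) are given beside the macrophage genes.

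The members did not move together. Cisplatin raised both CSF1R ligands and Cd68 and lowered Csf1r, while KW6002 given with cisplatin lowered the ligands and Cd68 again. Adgre1 was also called lower with cisplatin, but that call was lost in several of the alternatives given below. The promoters of the ligand with the largest change, Csf1, and of Cd68 are shown because these genes rose with cisplatin and fell with co-treatment. Il34 did so too, but no promoter window was available for it, nor for Adgre1, Csf1r, or Tyrobp. Each run holds the 250 bases before the RefSeq start in GRCm38.p6, read 5′ to 3′ on the minus strand that both genes use, with TGANTCA, the consensus of the AP-1 factors, in capitals.

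Cd68, chr11:69666171-69666420: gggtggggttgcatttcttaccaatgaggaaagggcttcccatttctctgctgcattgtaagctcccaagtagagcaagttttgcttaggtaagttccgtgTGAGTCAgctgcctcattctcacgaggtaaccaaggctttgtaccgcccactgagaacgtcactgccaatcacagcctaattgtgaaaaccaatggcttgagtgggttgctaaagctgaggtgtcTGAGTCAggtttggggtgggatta
Csf1, chr3:107760470-107760719: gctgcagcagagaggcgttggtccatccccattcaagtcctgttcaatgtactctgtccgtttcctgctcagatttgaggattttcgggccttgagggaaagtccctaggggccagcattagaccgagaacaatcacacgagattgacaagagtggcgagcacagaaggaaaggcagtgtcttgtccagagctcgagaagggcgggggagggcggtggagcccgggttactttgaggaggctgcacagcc

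The Cd68 window held the motif at 149 and at 24 bases before the start, and the Csf1 window held none. Both strands were searched. Of 32851 promoter windows of this length, 6.75% held TGANTCA, and 2.44% held GAGGAAGT, a site letter sequence of the myeloid factor PU.1 that was found in 0 of the 6 member windows searched. The windows of Cd163, Cx3cr1, Lyz2, and Mrc1 held neither motif. These matches describe letters in the windows and were not set against any measurement of binding.

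Compared per kilobase of exon, Lyz2 had the highest level of the 10 in vehicle kidneys, 69.1 ± 54.5 CPM per kb (mean ± SD, n = 5). Tyrobp followed with 20.2 ± 10.2, Cd68 with 14.7 ± 12.2, Csf1r with 14.2 ± 0.776, and Il34 with 10.8 ± 2.04. The remaining members lay lower, from Adgre1 with 3.66 ± 1.51 CPM per kb to Cd163 with 1.41 ± 1.29. After cisplatin, Cd68 (47.0 ± 7.28 CPM per kb, n = 5) and Il34 (35.4 ± 2.69) stood next to Lyz2 (53.9 ± 11.8), and Csf1r was at 6.06 ± 0.906. The means of Lyz2 and Cd68 in cisplatin kidneys, and of Tyrobp and Cd68 in vehicle kidneys, were each within the SD of both genes.

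**Figure D1:**
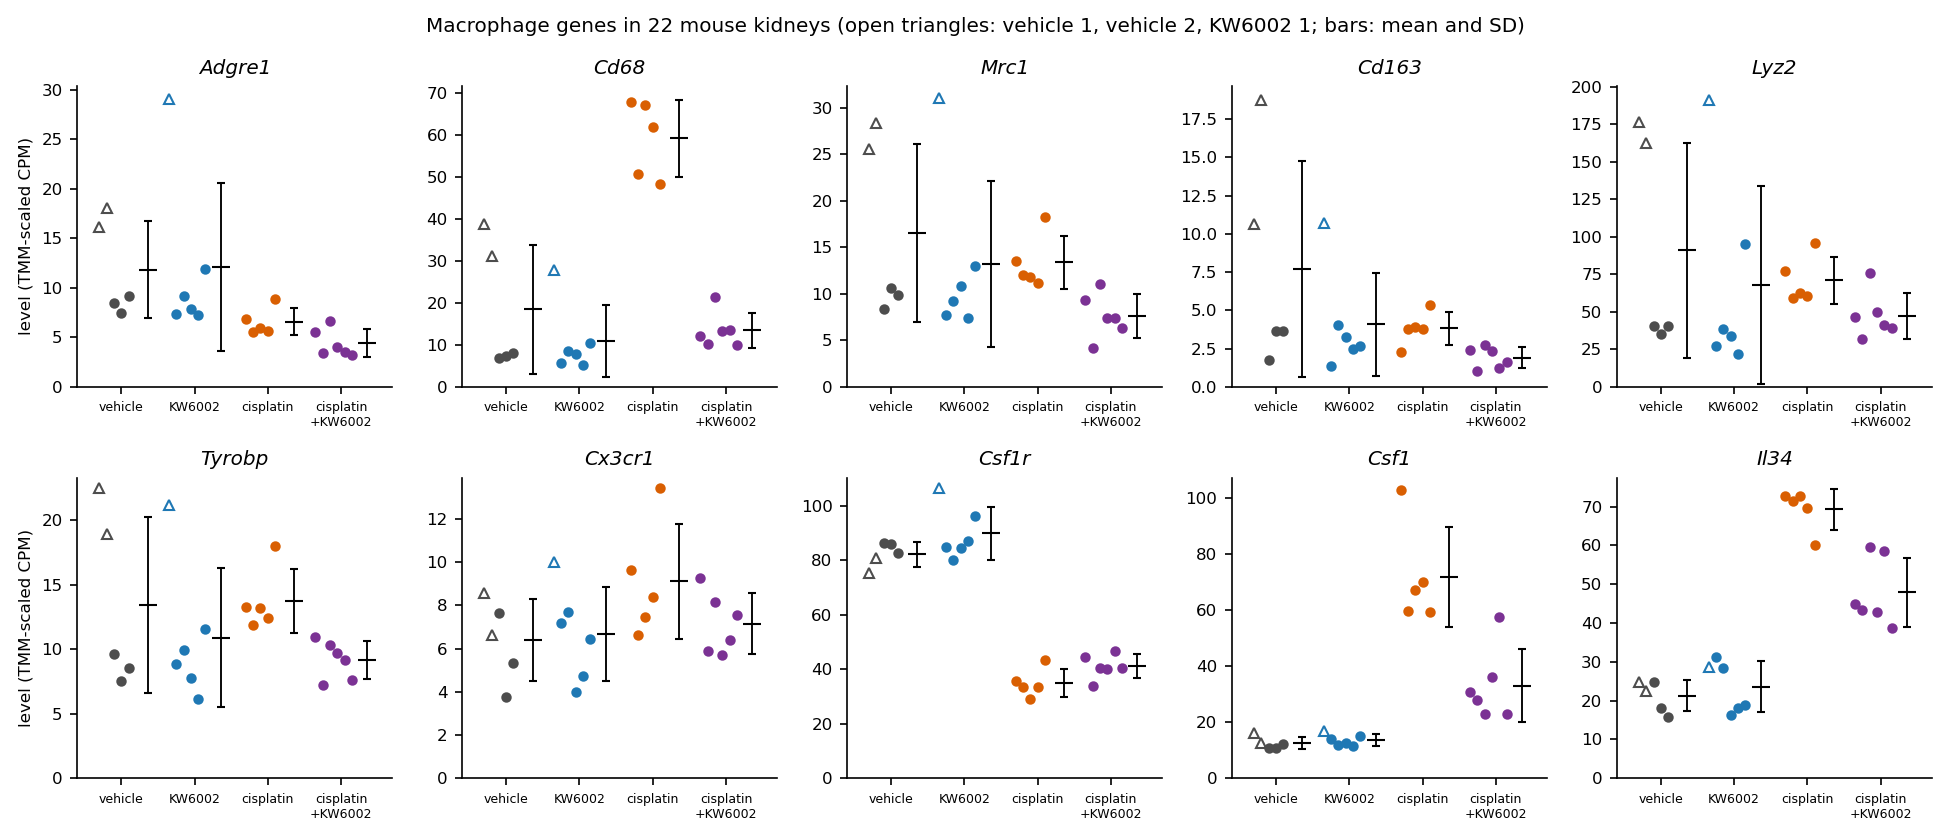
Level of each macrophage gene (TMM-scaled CPM, linear axes from 0) in every kidney of the 4 groups, with the mean and SD of the group beside the points. Cd68, Csf1, and Il34 were highest in the 5 cisplatin kidneys, Csf1r was lower in both cisplatin-treated groups than in both groups without cisplatin, and vehicle 1, vehicle 2, and KW6002 1 (open triangles) stood above the rest of their groups for Adgre1, Cd68, Mrc1, Cd163, Lyz2, and Tyrobp.

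Before the comparisons, 3 kidneys need to be named. Vehicle 1, vehicle 2, and KW6002 1 had the highest fat RNA of the kidneys without cisplatin, with Adipoq at 71.3, 138.0, and 42.5 CPM and Cfd at 200.8, 386.4, and 214.3 CPM. In the other vehicle kidneys Adipoq was at 18.8, 18.0, and 7.39 CPM. The same 3 kidneys were also the highest of their groups for 7 macrophage genes, Adgre1, Cd68, Mrc1, Cd163, Lyz2, Tyrobp, and, by a smaller margin, Csf1. Adgre1, for example, was at 16.2 and 18.1 CPM in vehicle 1 and 2 and at 8.43, 7.43, and 9.14 CPM in the other vehicle kidneys. It reached 29.1 CPM in KW6002 1, where the other KW6002 kidneys lay between 7.28 and 11.9 CPM. All 3 carry sample label numbers in the 300s, as do vehicle 3, KW6002 2, and KW6002 3, whereas every cisplatin-treated mouse is numbered in the 500s. What the number series stands for is not given in the sources used here. Results that rest on these kidneys are therefore given with and without them, that is, in 22 and in 19 libraries, and the choice of these 3 was made after their values had been seen. The part of fat RNA in the macrophage gene levels was not tested beyond the values given here. Below, fat-rich names only vehicle 1, vehicle 2, and KW6002 1. In the mean log2 CPM of Adipoq and Cfd, cisplatin 3 (6.63) and cisplatin 4 (6.70) were above KW6002 1 (6.58).

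The question of the cisplatin comparison is which genes the drug changed in the kidney. Of the 10 members, 3 rose (Csf1, Il34, and Cd68) and 2 fell (Csf1r and Adgre1), and 5 did not pass an adjusted p of 0.05 (edgeR's quasi-likelihood test, Benjamini-Hochberg adjustment over all 17131 genes, as for every adjusted p below unless another test is named). In that comparison 34.6% of all genes tested were called higher and 35.9% lower, so calls among the members were not more frequent than among all genes. The median log2 fold change of the 10 was -0.14, against -0.01 for all genes. With library sizes as the only scaling, the median of all genes moved to 0.20 and 65.8% of the calls were higher, against 49.1% with TMM, and 4 members were called higher and 1 lower. Fewer cells of a type and less RNA per cell cannot be told apart in RNA from whole kidneys. Separate mice gave the samples of a group, so the spread includes differences between animals.

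Both ligands of CSF1R rose with cisplatin. Csf1 was at 16.0, 12.8, 10.8, 10.99, and 12.4 CPM in the vehicle kidneys and at 102.9, 60.0, 67.2, 70.2, and 59.3 CPM in the cisplatin kidneys. The groups did not overlap, and the log2 fold change was 2.51 (SE 0.22, adjusted p = 4.92e-10). Cisplatin kidney 1 was the highest by a wide margin. Il34 was at 24.7, 22.5, 24.7, 18.2, and 15.9 CPM without and at 72.6, 71.5, 72.6, 69.6, and 60.1 CPM with cisplatin, again without overlap. Its log2 fold change was 1.71 (SE 0.17, adjusted p = 5.91e-09). The ratio of Csf1 to Il34 counts within a kidney, which does not depend on how libraries are scaled, rose by 0.77 on the log2 scale (exact permutation test, two-sided, p = 0.00794, adjusted p = 0.0277 over 32 ratio tests, n = 5 and 5). Il34 shares 75 exon bases with Gm15895, an antisense gene on the other strand that itself went from 3.38 ± 0.670 to 7.77 ± 1.58 CPM (SD, n = 5 each). Whether counting used the strand is not stated, and the part of the shared bases in either count was not tested.

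Their receptor went the other way. Csf1r was at 75.2, 80.7, 86.2, 85.7, and 82.8 CPM in the vehicle kidneys and at 35.5, 33.7, 29.1, 33.3, and 43.4 CPM after cisplatin. No cisplatin kidney reached a vehicle kidney, and the level fell to 0.426 times that of vehicle (log2 fold change -1.23, SE 0.09, adjusted p = 6.63e-11). Among the 10 genes Csf1r had the smallest spread in the vehicle group, with a coefficient of variation of 5.45%, against 91.9% for Cd163. Csf1r lies on chromosome 18 (61100598 to 61132149, plus strand) and shares 873 of its 5774 exon bases with Hmgxb3 on the other strand. Hmgxb3 was at 41.5 ± 2.01 CPM in vehicle and 37.4 ± 2.28 CPM in cisplatin kidneys (SD, n = 5 each), a far smaller difference than that of Csf1r. Between cisplatin and co-treated kidneys (42.2 ± 1.64 CPM, SD, n = 6), however, Hmgxb3 was 1.13 times as high, with 5 of 6 co-treated kidneys above all cisplatin kidneys.

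Cd68 and Adgre1, 2 markers commonly read as macrophage content, moved in opposite directions. Cd68 was at 38.8, 31.2, 6.89, 7.36, and 8.10 CPM in vehicle kidneys, so the group fell into 2 high and 3 low kidneys. After cisplatin it was at 67.8, 50.7, 67.1, 61.7, and 48.3 CPM, above every vehicle kidney, and the log2 fold change was 1.68 (SE 0.45, adjusted p = 0.00209). Without the 3 kidneys rich in fat RNA the log2 fold change was 2.98 (SE 0.24, adjusted p = 1.12e-09). Adgre1 was at 6.87, 5.58, 5.97, 5.64, and 8.89 CPM in cisplatin kidneys, of which 4 lay below all vehicle kidneys. Its log2 fold change of -0.84 (SE 0.34, adjusted p = 0.0316) did not hold without those 3 kidneys (-0.34, SE 0.21, adjusted p = 0.163). The call was also lost when 1 kidney was left out: vehicle 1 (adjusted p = 0.0855), vehicle 2 (0.105), cisplatin 2 (0.0649), cisplatin 3 (0.0597), or cisplatin 4 (0.0638). With library sizes as the only scaling it missed the threshold as well (adjusted p = 0.103).

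The ratio of Cd68 to Adgre1 separated the groups more clearly than either gene. On the log2 scale it averaged 0.31 ± 0.68 in vehicle and 3.17 ± 0.43 in cisplatin kidneys (SD, n = 5 each), a difference of 2.86 (exact permutation test, two-sided, p = 0.00794, the smallest that 5 against 5 allows, adjusted p = 0.0277). The ratios of Cx3cr1, Tyrobp, and Mrc1 to Adgre1 rose by 1.29, 0.93, and 0.63 with the same p-values, and none of these overlapped between the groups. Those of Csf1r (-0.47), Cd163 (0.22), and Lyz2 (0.77) did not pass, with adjusted p-values of 0.254, 0.731, and 0.0907. Within the same kidney Adgre1 thus fell behind 4 of the 7 genes set against it. In 19 libraries 0 of the 32 ratio tests passed after adjustment, and the Cd68 to Adgre1 difference was then 3.33 (adjusted p = 0.0762). With fewer vehicle kidneys the smallest p of the exact test is larger. The lost calls therefore do not show that the ratios depended on the kidneys left out. The comparison of co-treated with cisplatin kidneys holds none of the 3 left out, so its ratios did not change, and their adjusted p moved to 0.0693 through the other tests of the family.

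Mrc1, Cd163, Lyz2, Tyrobp, and Cx3cr1 did not pass in the 22 libraries. The scavenging receptor Cd163 was at 10.7, 18.8, 1.75, 3.63, and 3.64 CPM in vehicle and at 2.29, 3.77, 3.94, 3.80, and 5.32 CPM in cisplatin kidneys. Its log2 fold change was -1.0 (SE 0.51, adjusted p = 0.0874), and of the vehicle kidneys just 1 and 2 lay above all cisplatin kidneys. Lyz2 had the same shape, with 176.2 and 162.3 CPM in vehicle 1 and 2, 35.5 to 40.6 CPM in the other 3, and 58.8 to 95.5 CPM after cisplatin. Its log2 fold change was -0.36 (SE 0.52, adjusted p = 0.547), that of Mrc1 -0.31 (SE 0.37, adjusted p = 0.473), and that of Tyrobp 0.03 (SE 0.29, adjusted p = 0.922). Cx3cr1, with 3.77 to 8.58 CPM in vehicle and 6.61 to 13.4 CPM in cisplatin kidneys, came nearest to the threshold (0.51, SE 0.24, adjusted p = 0.0580).

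In 19 libraries the picture changed for this group of genes. The mean log2 CPM of Adipoq and Cfd was 5.01, 4.81, and 3.66 in the vehicle kidneys left. All were below the cisplatin kidneys (5.28 to 6.70). The part of this difference in the calls was not tested. In these 19 libraries 6 members were called higher and 1 lower with cisplatin, beside 33.2% and 34% of all genes. Lyz2 was then higher (0.87, SE 0.35, adjusted p = 0.0350), as were Tyrobp (0.67, SE 0.18, adjusted p = 0.00232) and Cx3cr1 (0.70, SE 0.25, adjusted p = 0.0198). Mrc1 and Cd163 turned to 0.47 and 0.34 without passing (adjusted p = 0.0810 and 0.376). Csf1, Il34, and Csf1r had log2 fold changes of 2.66, 1.82, and -1.28, near those in 22 libraries. With the mean log2 CPM of Adipoq and Cfd as a covariate in 22 libraries, 3 members were called higher and 3 lower. Over all 17131 genes that fit called 5990 higher and 6157 lower. In the mice numbered in the 500s alone, which leaves 2 vehicle kidneys, Cx3cr1 (0.99, adjusted p = 0.00385) and Tyrobp (0.76, adjusted p = 0.00500) were called higher and Adgre1 was not called (-0.34, adjusted p = 0.263).

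**Figure D2:**
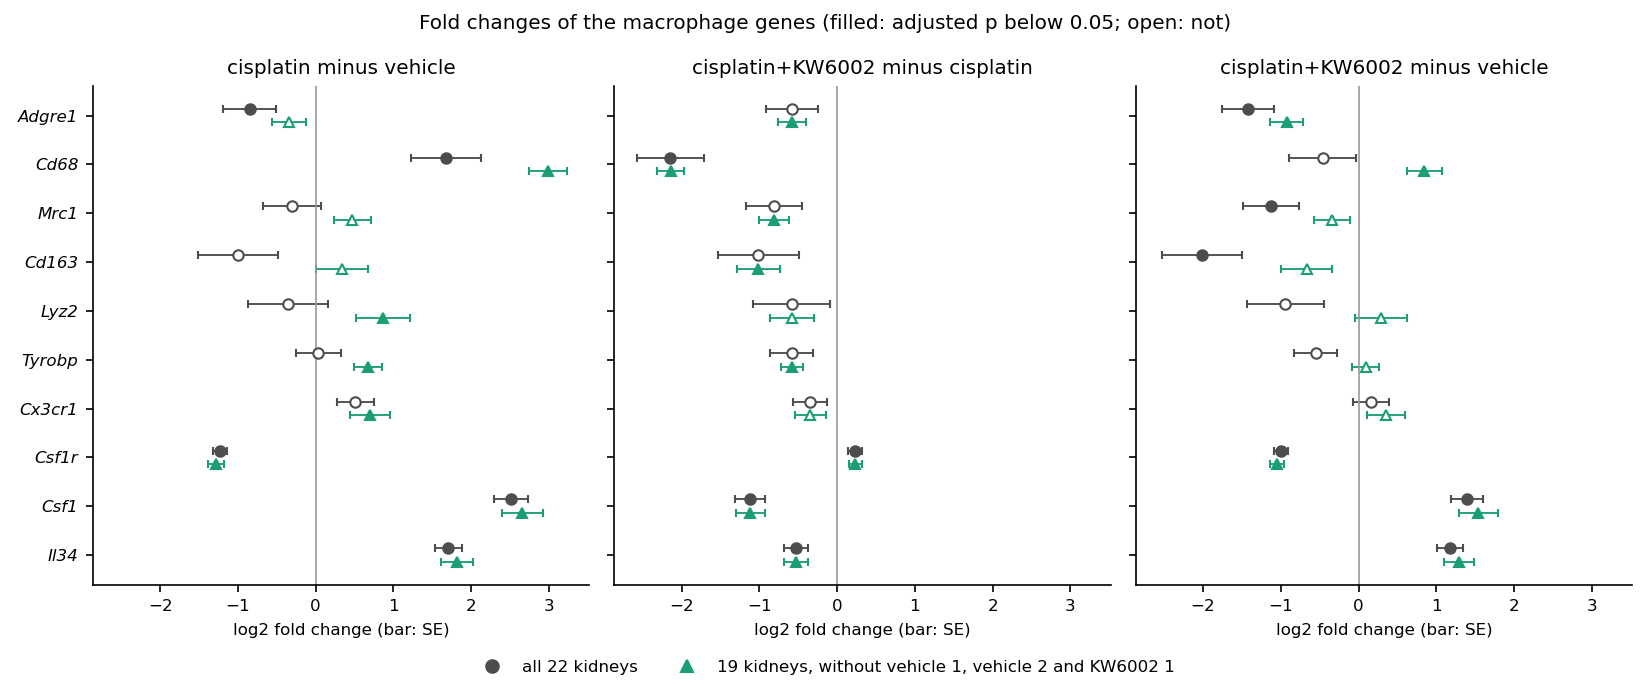
Log2 fold change of each macrophage gene with its SE in 3 comparisons, in 22 libraries (circles) and without vehicle 1, vehicle 2, and KW6002 1 (triangles), where filled symbols have an adjusted p below 0.05. Csf1r, Csf1, and Il34 hardly moved between the fits, whereas Cd68 in cisplatin plus KW6002 against vehicle went from -0.46 to 0.84.

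The comparison of cisplatin plus KW6002 with cisplatin alone asks what the antagonist changed in treated kidneys. Cd68, Csf1, and Il34 fell and Csf1r rose, 4 of 10 members, beside 28.6% of all genes called higher and 27.2% lower. The median log2 fold change of the 10 was -0.58, against 0.01 for all genes. Every cisplatin-treated kidney is numbered in the 500s. Vehicle 1, vehicle 2, and KW6002 1 do not enter these means, although they enter the shared estimate of the spread. The cisplatin kidneys themselves had a mean log2 CPM of Adipoq and Cfd of 5.28 to 6.70.

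Cd68 showed the largest difference. It had a lowest value of 9.94, a median of 12.6, and a highest of 21.4 CPM in the 6 co-treated kidneys, all below the lowest cisplatin kidney at 48.3 CPM. The log2 fold change was -2.14 (SE 0.43, adjusted p = 2.07e-04), and the ratio of Cd68 to Adgre1 fell by 1.57 on the log2 scale (exact permutation test, two-sided, p = 0.00433, adjusted p = 0.0277). Csf1 ran from 22.9 to 57.5 CPM with a median of 29.4, and co-treated kidney 5 at 57.5 CPM nearly reached the lowest cisplatin kidney at 59.3 CPM. Its log2 fold change was -1.12 (SE 0.19, adjusted p = 3.31e-05). Il34 ran from 38.6 to 59.7 CPM with a median of 44.0 and also stayed under the lowest cisplatin kidney (60.1 CPM), with a log2 fold change of -0.53 (SE 0.16, adjusted p = 0.00578). Its antisense neighbor Gm15895 moved alongside, to 4.97 ± 0.989 CPM (SD, n = 6), 0.64 times the cisplatin mean.

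Csf1r was at 34.0 CPM at the lowest, 40.5 at the median, and 46.6 at the highest in co-treated kidneys. These overlapped with the cisplatin kidneys, and the log2 fold change was small (0.23, SE 0.09, adjusted p = 0.0326). The fitted ratio of 1.17 is close to the 1.13 of the overlapping Hmgxb3, and whether the 2 ratios are linked was not tested. The call was lost without cisplatin 2, 3, or 4 (adjusted p = 0.0670, 0.114, and 0.0711) and without co-treated kidney 1 or 5 (0.0675 and 0.0831). Library sizes as the only scaling lost it too (0.17, adjusted p = 0.110). The Csf1r to Adgre1 ratio, which needs no scaling, rose by 0.84 on the log2 scale without overlap (exact permutation test, two-sided, p = 0.00433, adjusted p = 0.0277). Adgre1 itself was at -0.58 in this comparison (edgeR adjusted p = 0.147), so the ratio alone does not show a rise of Csf1r.

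The remaining 6 genes were lower on average and did not pass. Mrc1 was at 11.2 to 18.2 CPM after cisplatin and at 4.20 to 11.1 CPM (median 7.37) with co-treatment, which do not overlap, and its log2 fold change was -0.82 (SE 0.36, adjusted p = 0.0590). Tyrobp did not overlap either (11.9 to 18.0 against 7.25 to 10.9 CPM, log2 fold change -0.59, SE 0.28, adjusted p = 0.0777). Cd163 (-1.01, SE 0.52, adjusted p = 0.101), Adgre1 (-0.58, SE 0.34, adjusted p = 0.147), Lyz2 (-0.58, SE 0.49, adjusted p = 0.327), and Cx3cr1 (-0.35, SE 0.22, adjusted p = 0.190) overlapped. In 19 libraries these fold changes were nearly the same and the SE were smaller, since the spread of the 3 kidneys no longer entered them. There Adgre1 (adjusted p = 0.0108), Mrc1 (0.00119), Cd163 (0.00433), and Tyrobp (0.00167) were called lower, for 7 members lower and 1 higher beside 28.2% and 28.6% of all genes. A fit of these 2 groups alone called 8 members lower and 0 higher, beside 29.6% and 29.4% of all genes.

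Fat RNA moved the same way in this comparison, and its part in the lower macrophage genes was not tested. Adipoq was at 22.2, 26.0, 48.8, 55.6, and 38.4 CPM after cisplatin and at 0.408 to 32.3 CPM (median 8.39) with co-treatment. The log2 fold change was -1.73 (SE 0.71, adjusted p = 0.0432). Cfd changed by -1.37 (SE 0.77, adjusted p = 0.135). Of the 10 fat genes listed, which include Adipoq and Cfd, 6 were called lower and 0 higher, beside 27.2% and 28.6% of all genes. Their summed level ran from 555 to 1063 CPM after cisplatin and from 75.0 to 648 CPM with co-treatment, and none was at 0 throughout a group. When the mean log2 CPM of Adipoq and Cfd was added to the fit as a covariate, the log2 fold change of Cd163 became 0.00 (adjusted p = 0.999) and that of Lyz2 0.29 (adjusted p = 0.611). Adgre1 went to -0.06 (adjusted p = 0.883), Mrc1 to -0.17 (0.647), Tyrobp to -0.14 (0.670), and Cx3cr1 to -0.16 (0.610). Cd68 was smaller at -1.41 (adjusted p = 0.00575) and kept its call, as did Csf1, Il34, and Csf1r with -1.08, -0.53, and 0.30. That fit used a slope common to all groups (0.49 for Cd163 and 0.38 for Lyz2). Without vehicle 1, vehicle 2, and KW6002 1, none of which is in this comparison, no member had a slope that passed. The mean log2 CPM of Adipoq and Cfd was 5.28 to 6.70 after cisplatin and at most 5.04 with co-treatment, except in kidney 1 (6.20). With so little shared range, the values with the covariate cannot show the part of fat RNA.

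Set against vehicle, the co-treated kidneys still had more of both ligands and less Csf1r. Csf1 was 1.40 higher on the log2 scale (SE 0.21, adjusted p = 4.37e-06) and Il34 1.18 higher (SE 0.16, adjusted p = 2.02e-06), and neither overlapped with vehicle. Csf1r was lower than in vehicle (log2 fold change -1.0, SE 0.09, adjusted p = 2.52e-09), also without overlap. Adgre1 had 3.27 at the lowest, 3.80 at the median, and 6.69 CPM at the highest, below all vehicle kidneys (log2 fold change -1.43, SE 0.33, adjusted p = 8.53e-04). In all, 2 members were called higher and 4 lower, beside 29.8% and 29.9% of all genes. Library sizes alone moved the median of all genes to 0.16 and the share of higher calls from 49.97% to 67.7% here, with the same number of members called each way.

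The other calls against vehicle turned on the fat-rich kidneys. Cd163 was lower in 22 libraries (-2.01, SE 0.51, adjusted p = 0.00188), at -1.38 without vehicle 2 (adjusted p = 0.0175), and not called in 19 libraries (-0.67, SE 0.33, adjusted p = 0.0960). Mrc1 went from -1.12 (SE 0.36, adjusted p = 0.0107) to -0.34 (SE 0.23, adjusted p = 0.215), and without vehicle 2 alone it was at -0.84 (adjusted p = 0.0529). Cd68 went from -0.46 (SE 0.44, adjusted p = 0.372) to 0.84 (SE 0.23, adjusted p = 0.00376) and was then called higher. Adgre1 stayed lower (-0.92, SE 0.21, adjusted p = 0.000952). In 19 libraries 3 members were called higher and 2 lower, beside 26.9% and 26.4% of all genes. Lyz2 (-0.94, SE 0.50, adjusted p = 0.106), Tyrobp (-0.55, SE 0.28, adjusted p = 0.0948), and Cx3cr1 (0.16, SE 0.23, adjusted p = 0.558) were called in neither. Within kidneys, the log2 ratios of Cd68, Cx3cr1, and Tyrobp to Adgre1 were higher than in vehicle by 1.29, 1.58, and 0.96 (exact permutation tests, two-sided, p = 0.00866, 0.00433, and 0.00433, adjusted p = 0.0277 each).

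**Figure D3:**
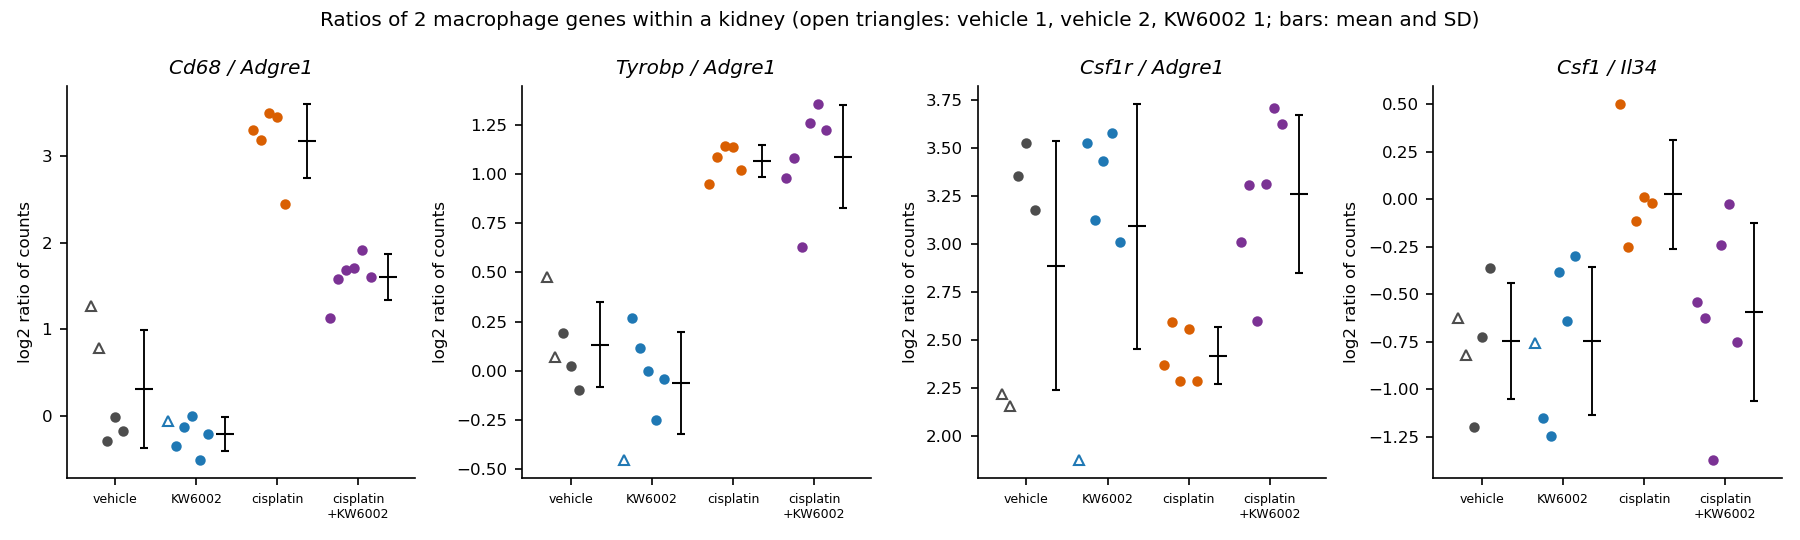
Log2 ratio of the counts of 2 macrophage genes in every kidney, with the mean and SD of each group. The 5 cisplatin kidneys lie above all others for Cd68 to Adgre1, the Tyrobp to Adgre1 ratio is higher in both cisplatin-treated groups than in both others, and the Csf1r to Adgre1 ratio is lowest in KW6002 1 and in vehicle 1 and 2 among the kidneys without cisplatin.

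KW6002 without cisplatin changed none of the 10 members by the test. Their log2 fold changes lay between -0.89 for Cd163 (SE 0.49, adjusted p = 0.503) and 0.16 for Il34 (SE 0.16, adjusted p = 0.745). Over all genes, 0.0175% were called higher and 0% lower by edgeR, with 1930 genes at an unadjusted p under 0.05, and DESeq2 called 99 genes but 0 members. Cd68 had a lowest value of 5.10, a median of 8.12, and a highest of 27.9 CPM in the 6 KW6002 kidneys, the highest being the fat-rich kidney 1. For genes as scattered as Cd163 the SE leaves room for sizeable differences, so this result does not show that the levels were equal.

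Whether the KW6002 effect differed with and without cisplatin was tested as an interaction. It passed for Csf1 (-1.25, SE 0.28, adjusted p = 0.00111) and Il34 (-0.69, SE 0.23, adjusted p = 0.0166), beside 22.8% of all genes called in the higher and 19.9% in the lower direction. Of these calls 53.4% were higher with TMM and 42.5% with library sizes alone. For Cd68 it was -1.40 (SE 0.61, adjusted p = 0.0711). In 19 libraries Cd68 passed (-2.14, SE 0.30, adjusted p = 1.39e-05), 5 members were called and all of them lower, beside 21.5% higher and 19.1% lower of all genes. Leaving out vehicle 1, vehicle 2, KW6002 5, or co-treated kidney 3 alone also brought Cd68 past the threshold (adjusted p = 0.0137, 0.0372, 0.0487, and 0.0480). Leaving out KW6002 1 alone took it to -0.84 (adjusted p = 0.219). Il34 was at -0.57 (adjusted p = 0.0524) without KW6002 2 and co-treated kidney 2, the kidneys lowest in fat genes.

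**Figure D4:**
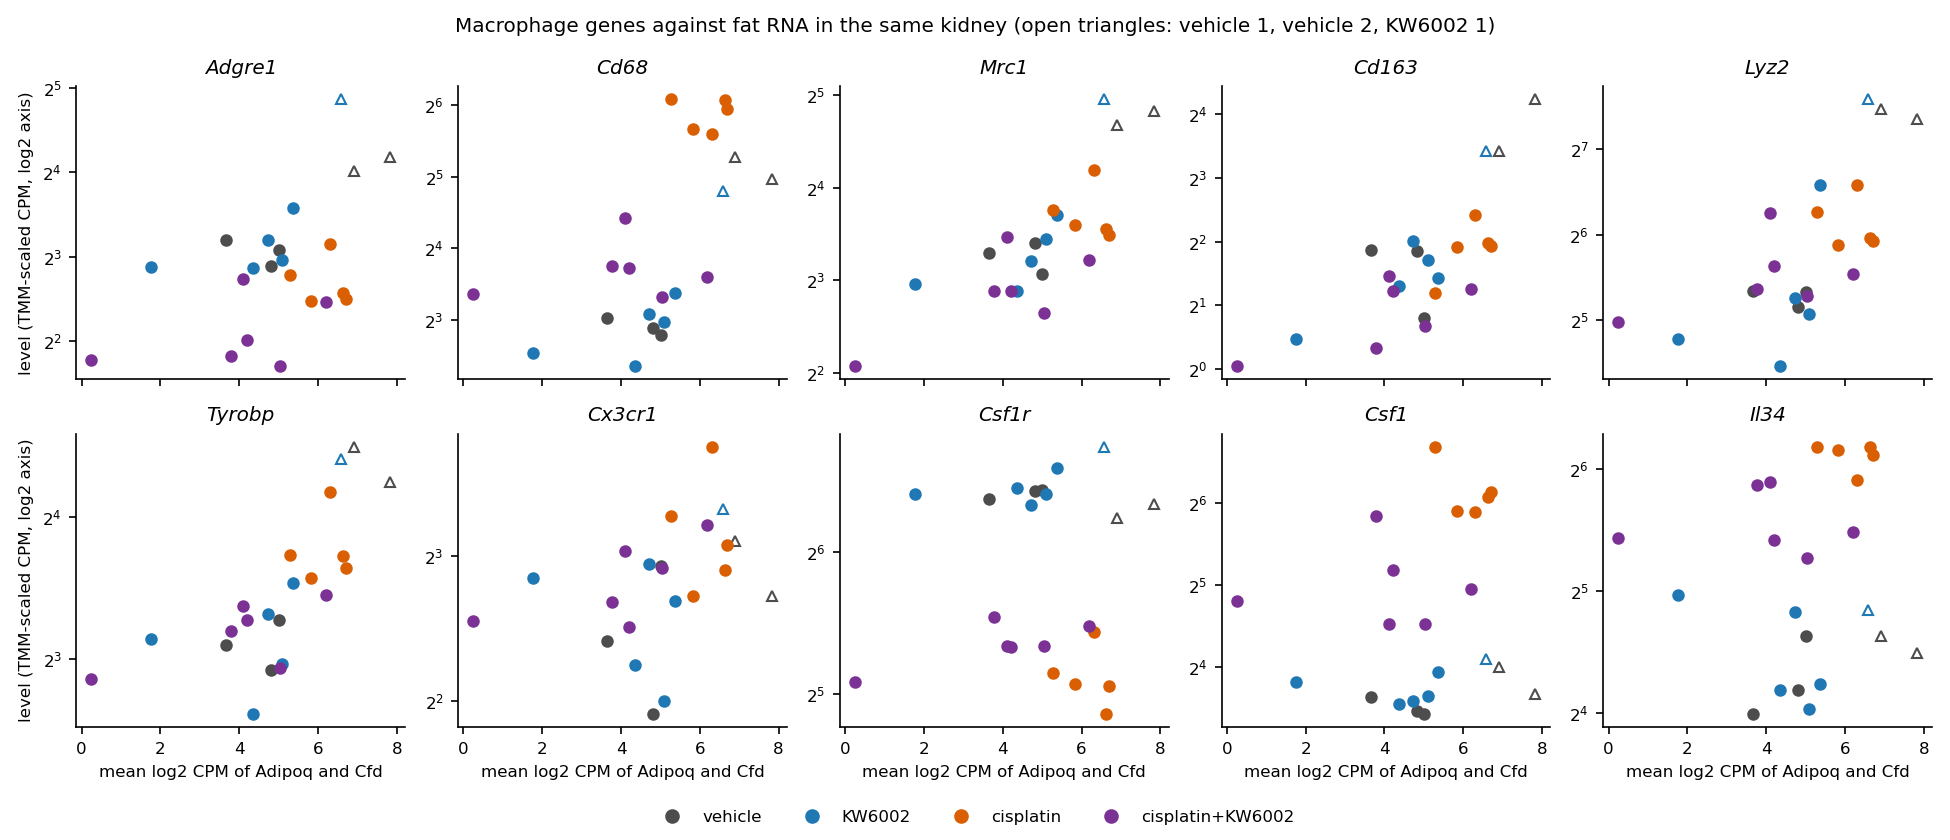
Level of each macrophage gene (log2 axis) against the mean log2 CPM of Adipoq and Cfd in the same kidney, colored by group. Cd163 and Mrc1 run from low in the kidneys with least fat RNA to high in vehicle 1, vehicle 2, and KW6002 1, while the cisplatin kidneys lie between 5.28 and 6.70 on the fat axis and 5 of 6 co-treated kidneys at 5.04 or below, so these groups share little of it.

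Covariation with fat RNA was tested as a slope on the mean log2 CPM of Adipoq and Cfd within groups. This mean ran from 0.25 in co-treated kidney 2 and 1.76 in KW6002 2 to 7.83 in vehicle 2. Of the members, 4 had a positive slope that passed, Cd163 (0.49 log2 units per log2 unit of fat RNA, SE 0.08, adjusted p = 0.00136), Mrc1 (0.31, SE 0.06, adjusted p = 0.00484), Lyz2 (0.38, SE 0.09, adjusted p = 0.0344), and Adgre1 (0.24, SE 0.06, adjusted p = 0.0489). Positive slopes were called for 1.51% of all genes and negative ones for 0.0642%. Tyrobp (0.20, adjusted p = 0.0534) and Cd68 (0.32, adjusted p = 0.0668) lay just outside the threshold. Cx3cr1 (0.09, adjusted p = 0.533) and Csf1r (0.03, adjusted p = 0.598) did not pass, and the slopes of Csf1 and Il34 were smaller still.

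Without the 3 fat-rich kidneys these slopes were smaller and did not pass. Those of Adgre1 and Lyz2 were also lost without some other single kidneys. In 19 libraries none of the 10 passed, and the slopes of Cd163, Mrc1, Lyz2, and Adgre1 were 0.23, 0.15, 0.16, and 0.09 with adjusted p-values of 0.518, 0.518, 0.777, and 0.80. In the mice numbered in the 500s alone none passed either, with slopes of 0.21, 0.17, 0.12, and 0.08. The slope of Adgre1 held when KW6002 4, cisplatin 1, cisplatin 4, or co-treated kidney 2, 3, or 6 was left out and was lost when any other single kidney was (adjusted p up to 0.195, without KW6002 1). That of Lyz2 was lost without vehicle 2 (adjusted p = 0.102), vehicle 3 (0.0586), vehicle 4 (0.0601), vehicle 5 (0.101), KW6002 1 (0.149), or KW6002 2 (0.0870).

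Among themselves, within groups, the members fell into those that varied together and those that did not. With group means removed, Adgre1 correlated over the 22 libraries with Mrc1 (r = 0.94), Lyz2 (0.93), Tyrobp (0.92), Cd68 (0.86), and Cd163 (0.81), and less with Cx3cr1 (0.69), Csf1r (0.42), Il34 (0.35), and Csf1 (0.23). These libraries share the 3 fat-rich kidneys, and Mrc1 and Cd163 also correlated with Adipoq (0.73 and 0.73) and Cfd (0.73 and 0.76). Csf1r had 0.07 with Cd68 and 0.16 with Cd163. The genes most like Csf1r in this measure, out of 12764, were Gm45645 (0.80), Atp8b4 (0.74), Adcy9 (0.70), Hdac2 (0.70), and Wdr7 (0.69), none of which is a member. These r are descriptions over libraries of 4 groups and carry no test.

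Other macrophage genes, from lists drawn up with earlier results of these data known, moved in both directions. Their counts are to be read against all genes, of which 34.6% were called higher and 35.9% lower with cisplatin, and 28.6% and 27.2% with co-treatment against cisplatin. Of 17 further pan-macrophage and leukocyte genes, 2 rose and 3 fell with cisplatin, with a median of -0.08, and 1 rose and 2 fell with co-treatment against cisplatin. Lcp1 (L-plastin, an actin-bundling protein of leukocytes) fell by 0.57 on the log2 scale with cisplatin (adjusted p = 5.11e-04) and rose by 0.74 with co-treatment (adjusted p = 2.94e-05). Mpeg1 (perforin-2) and Ctss (cathepsin S) passed in neither. Ptprc, the pan-leukocyte antigen CD45, was looked at after its values were known and fell by 0.82 with cisplatin (adjusted p = 1.53e-04). Of 10 tested genes of resident macrophages 2 rose and 3 fell with cisplatin, the most abundant being the transcription factor Maf (-1.39, adjusted p = 5.97e-11), which tubule cells also express.

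Of 12 monocyte genes, 6 rose and 1 fell with cisplatin and 0 rose and 4 fell with co-treatment, with medians of 0.68 and -0.44. The most abundant were Nr4a1, an immediate early gene of many cell types (3.55, adjusted p = 2.49e-07), Plac8 (1.71, adjusted p = 5.45e-09), and the lipopolysaccharide co-receptor Cd14 (2.89, adjusted p = 2.61e-13). With co-treatment Cd14 changed by -1.58 (adjusted p = 3.10e-09). Ly6c2 and Ccr2, markers of classical monocytes in the same list, were singled out after their values were seen and do not stand for the list. Ly6c2 fell by 2.43 with cisplatin (adjusted p = 6.86e-05), and Ccr2 was at -0.33 (adjusted p = 0.36).

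Genes of activated states gave 4 rises and 3 falls among 11 tested inflammatory genes with cisplatin, led in abundance by Irf5 (-0.48, adjusted p = 0.00309), Cxcl10 (1.52, adjusted p = 5.00e-07), and Ptgs2 (3.42, adjusted p = 4.26e-09). Of 7 tested genes of alternative activation 4 rose and 2 fell with cisplatin, and 0 rose and 3 fell with co-treatment. Msr1, the class A scavenger receptor, went from 1.25 ± 0.965 CPM in vehicle to 5.95 ± 1.91 CPM in cisplatin kidneys (SD, n = 5 each, log2 fold change 2.25, adjusted p = 3.96e-05) and was lower again with co-treatment (-1.13, adjusted p = 0.0106). Among 10 genes of lipid-associated macrophages 5 rose and 2 fell with cisplatin and 0 rose and 4 fell with co-treatment. Spp1 (osteopontin), which tubule cells also make, had the highest mean of the list over all kidneys and rose from 783 ± 45.0 to 11736 ± 677 CPM (log2 fold change 3.91, adjusted p = 1.31e-19).

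Receptor partners of TYROBP were scarce, with a summed level of 5.93 to 28.1 CPM over 11 genes in any kidney, and 2 rose and 1 fell of the 9 tested with cisplatin. Trem2 was at 3.97 ± 4.01 CPM in vehicle and 3.05 ± 1.23 CPM in cisplatin kidneys (SD, n = 5 each) and did not pass (-0.38, adjusted p = 0.582). Of 6 tested ligands and partners of the members, 4 rose and 0 fell with cisplatin. Cx3cl1 (fractalkine, the ligand of CX3CR1) rose by 0.46 (adjusted p = 6.49e-05), and Sdc1 (syndecan-1, which binds IL-34) by 2.5 (adjusted p = 1.64e-16). Co-treatment changed Cx3cl1 by -0.14 (adjusted p = 0.171) and Sdc1 by -0.60 (adjusted p = 7.18e-07) relative to cisplatin.

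Other cell types moved in the same comparisons, and their part in the macrophage values was not tested. Their counts with cisplatin stand beside 34.6% of all genes called higher and 35.9% lower. The summed level of 8 tubule genes, which hold the defining markers of the tissue, was 18495 to 21575 CPM in vehicle, 3284 to 3903 in cisplatin, and 8084 to 11471 in co-treated kidneys. All 6 fibroblast genes rose with cisplatin, from a summed 215 to 438 CPM to between 894 and 1171 CPM. Of 10 neutrophil genes 7 could be tested, 3 rose and 0 fell, and their sum stayed between 4.55 and 18.6 CPM in any kidney. Sums of 6 B cell and 8 T cell genes were at most 34.0 and 9.32 CPM, and 5 of 6 B cell genes fell with cisplatin. Muscle genes summed to at most 1.04 CPM, and adrenal genes to at most 2.53 CPM except for 1 co-treated kidney with 55.1 CPM.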

How the data were processed

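The authors aligned single-end reads from stranded polyA libraries to mm10 with STAR, and the deposited values are raw counts of uniquely aligned reads per Ensembl gene from HTSeq 0.6.1p1. Unnamed empty columns of the table (66) were not used. Reads on bases shared by 2 genes may be lost in counting. Symbols and positions came from GENCODE M21. Counts were analyzed with edgeR 4.0.16 in R 4.3.3 (filterByExpr, TMM, 1 mean per group over 22 libraries, quasi-likelihood test, Benjamini-Hochberg adjustment), and the filter kept 99.9% of counts. The study's own tool, DESeq2 (here 1.42.0), was an alternative. The fat slope added the mean log2 CPM of Adipoq and Cfd. Ratios added 0.5 to counts. Replicate numbers were not taken to pair the samples. Of 31 same-number pairs, 10 had a correlation of deviations above 0.1 (range -0.29 to 0.53). Between vehicle and KW6002, replicates 1 to 5 had 0.53, -0.22, 0.23, 0.26, and 0.31. Pairs of different numbers were not computed, so a pairing cannot be judged from these values. Genes named are the members, Adipoq and Cfd, the 5 genes most like Csf1r, and up to 3 of the most abundant genes per list. Members and lists were chosen with earlier results of these data known. Alternatives were other scalings, filters, and sample sets, a stricter call, the replicate block, the label series, and each library left out. The steps were tested on simulated data.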

Additional observations from a re-analysis of the deposited data

Results flagged for a closer look

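Of 48 sets of CPM values (a gene in a group of 5 or 6 kidneys), 10 held 1 kidney far from the others. The cutoff used flags about 1 in 20 sets of independent, normally distributed values. Several of these genes vary together within groups, and KW6002 1 gave most of the 10, so the 10 are not separate evidence. KW6002 1 stood apart for Adgre1 (29.1 CPM, the others 7.28 to 11.9), Cd68 (27.9 CPM, the others 5.10 to 10.3), Mrc1 (31.0 CPM, the others 7.35 to 13.03), Cd163 (10.7 CPM, the others 1.38 to 4.04), Tyrobp (21.2 CPM, the others 6.12 to 11.6), and Cfd (214.3 CPM, the others 5.96 to 81.7). Cisplatin 1 stood apart for Csf1 (102.9 CPM, the others 59.3 to 70.2), and without it Csf1 still fell with co-treatment (-0.95, edgeR adjusted p = 1.98e-04). Cisplatin 5 was low in Il34 (60.1 CPM, the others 69.6 to 72.6) and high in Tyrobp (18.0 CPM, the others 11.9 to 13.3). Co-treated kidney 3 was high in Cd68 (21.4 CPM, the others 9.94 to 13.5).

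The KW6002 effect differed with and without cisplatin by the interaction test for Csf1 (-1.25 on the log2 scale, edgeR adjusted p = 0.00111) and Il34 (-0.69, adjusted p = 0.0166).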

How the results depend on the processing

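Over all alternatives of the single-gene and ratio values, 1021 kept their direction and their side of the threshold, 143 lost the call, 55 gained it, and 26 changed sign, and the cause of these changes was not tested beyond the smaller sample sets themselves. Csf1, Il34, and Csf1r kept their directions under the alternatives run for cisplatin and for co-treatment against vehicle and against cisplatin. With the label series as covariate, Mrc1 and Lyz2 were at 0.25 and 0.54 with cisplatin, and Cd68 and Tyrobp at 0.47 and 0.032 with co-treatment against vehicle. With mice numbered in the 500s alone, Mrc1, Cd163, and Lyz2 were at 0.38, 0.066, and 0.89 with cisplatin, and Cd68, Lyz2, and Tyrobp at 0.79, 0.31, and 0.18 with co-treatment against vehicle. Without the 3 fat-rich kidneys (an alternative chosen after seeing the data) these were 0.47, 0.34, and 0.87, and 0.84, 0.29, and 0.092. With the fat covariate, Cd163 and Lyz2 were at 0.0015 and 0.29 with co-treatment against cisplatin, and Cd68 and Lyz2 at 0.34 and 0.021 against vehicle. The slopes used in that fit did not pass for any member without the fat-rich kidneys. Leaving out each library, Lyz2 with cisplatin ran from -0.56 to 0.028 and Tyrobp from -0.12 to 0.30, and Cd68 with co-treatment against vehicle from -0.67 to 0.015, the highest values being those without vehicle 1. Tyrobp was below 0 without vehicle 3, 4, or 5 or cisplatin 5.

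Of the counts of called members, that of co-treatment against cisplatin (4) was 2 under a stricter call (threshold 0.01 and a log2 difference over 1), and 8 in the 2 groups alone, in the 500s alone, and without the 3 fat-rich kidneys. Of all 17131 genes, the stricter call took 796 higher and 970 lower. The 500s alone had 5130 and 5081 of 17761, and the shares of the other 2 sets are given above. The interaction count (2) was 1 under the stricter call, 1 without KW6002 2 and co-treated kidney 2, and 5 without the fat-rich kidneys. Over all genes, the stricter call took 727 higher and 742 lower of 17131. Without KW6002 2 and co-treated kidney 2 these were 3666 and 3142 of 17071. The slope count (4) was 0 in the 500s alone and without the fat-rich kidneys, and 2 to 6 with each library left out. It was 6 without a filter, on the summed fat list without Fabp4, and without KW6002 2 and co-treated kidney 2. With at least 10 counts in every library it was 3. Positive and negative slopes called there were 298 and 6 of 32858, 328 and 39 of 17131, 502 and 375 of 17071, and 160 and 7 of 14159 genes. In the 500s alone, 56 positive and 0 negative slopes were called among 17761 genes, and without the fat-rich kidneys 70 and 1 among 17522. The count of ratios (10) was 0 in those same smaller sets and 0 to 12 with each library left out, 0 whenever any vehicle kidney but 1 or any cisplatin kidney but 1 was missing. Fewer kidneys raise the smallest p that the exact test allows, so such losses do not show dependence on the kidney left out. Under the replicate block 6, 4, 0, 6, and 2 members were called for cisplatin, co-treatment against cisplatin, KW6002, co-treatment against vehicle, and the interaction. Over all 17131 genes, higher and lower calls were 5966 and 6121, 4796 and 4584, and 1 and 0 for the comparisons named first. For co-treatment against vehicle and the interaction they were 5074 and 5050, and 3866 and 3429. Whether the replicate numbers pair the mice is not settled by the values given here.

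Library sizes as the only scaling gave the splits of higher and lower calls that stand in the report. DESeq2 called 99 genes with KW6002 alone, where edgeR called 3. Depth limits the low genes most: Cd163 had 33 to 81 counts in co-treated kidneys.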
